A study of Mus musculus with 18 samples.

Results

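A set of 15 messenger RNAs of mouse testis carried more than 1 listed site of 5-methylcytosine (m5C), the cytosine bearing a methyl group on carbon 5 of its ring. They were chosen as every gene whose name stands on 2 or more rows of the deposited table of mRNA sites. This rule uses no level by itself, but it was set with earlier results of these data known. How the rows were selected is not given, and the lowest read counts among them are described below. The rule gave 31 sites in 15 genes, of 251 sites in 235 genes in all. Use1 had 3 sites and the other 14 genes had 2 each. The study compared testes of adult wild-type (WT) mice with those of adult Nsun7 knockout mice, and the mRNA part holds 3 libraries of each genotype. Poly(A) RNA was taken on oligo-dT beads and treated with an ultrafast bisulfite reagent, which turns unmethylated cytosine into uracil. A site's m5C level is the share of its reads that still show C, and unmethylated cytosines that escaped conversion count towards it. The labels give no age beyond adult, no strain and no description of the knockout allele, and they do not say whether the libraries of a genotype came from separate animals.

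m5C is written into RNA mainly by enzymes of the NOL1/NOP2/Sun (NSUN) family, of which NSUN2 and NSUN6 are the known writers on mRNA. ALYREF and YBX1 are known to bind m5C in mRNA, with roles described in export and stability. The title of the series calls NSUN7 catalytically inactive on RNA, so the comparison of genotypes asks whether any m5C site needs it. A gene with several sites allows its sites to be compared with each other within a library.

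All 15 symbols matched a RefSeq gene, and all 15 genes are protein-coding. Their known roles fall into a few groups. Cux1, Zfp541 and Atoh8 encode transcriptional regulators, Pcbp3 an RNA-binding protein and Ypel1 a small zinc-binding protein of the Yippee family. Golga3, Use1, Arl4a, Git1 and Atg9a act in membrane traffic or autophagy, and Mfsd11 is a predicted transporter. B9d1 serves cilia, Cox7c belongs to the respiratory chain, and Vwa3b is a little-studied gene with a von Willebrand factor A domain. None of the 15 was on the fixed lists of germ cell, Leydig cell, Sertoli cell or m5C enzyme and binder genes. Of these lists, 3 of 17 germ cell genes (Adam2, D1Pas1 and Piwil1), 1 of 5 Leydig cell genes and 1 of 7 Sertoli cell genes had a listed site, and 0 of 11 enzyme and binder genes. The table holds listed sites and not expression, so it allows no further check of the tissue or of the loss of Nsun7.

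The spacing of neighbouring sites within a gene ran from 1 to 173326 nucleotides on the genome, with a median of 856.5 over the 16 neighbouring pairs. Both sites of Arl4a and both of Cox7c were adjacent bases. Sites 2 and 3 of Use1 were 17 nucleotides apart and those of Golga3 23. The pairs of Ypel1 (225), Mfsd11 (362) and Vwa3b (379) were wider, and 8 pairs were more than 1000 nucleotides apart. In the whole table, 8 pairs of neighbouring sites lay within 1000 nucleotides of each other, and 8 of 8 were within 1 gene. Distances include any introns between the sites. The exon, UTR and transcript form of each site were not analysed here, so distant sites need not lie on the same RNA molecule.

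Levels in these genes were low at most sites. The median WT level was 6.94% over the 31 sites, beside 10.1% over all 251. In WT, 21 of the 31 sites stood under 10%, 4 between 10% and 20%, 5 between 20% and 50%, and 1 above 50%. The median coverage was 141.5 reads, beside 129.5 over all sites, with single libraries between 19 and 419 reads. Coverage summed over the 31 sites was 3647 to 5843 reads per library. Sites with more reads had lower levels, with a Spearman correlation of -0.61 across the 31 sites and -0.58 across all 251, given as descriptions. No listed site fell below 4 unconverted reads in a WT library. A WT library with 5 or fewer was present at 14 of the 31 sites, beside 78 of all 251. In the knockout libraries the lowest number was 2 at the 31 sites and 1 over all sites. The part of this minimum in the relation of level to coverage, and in the differences between genotypes, was not tested.

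**Figure D1:**
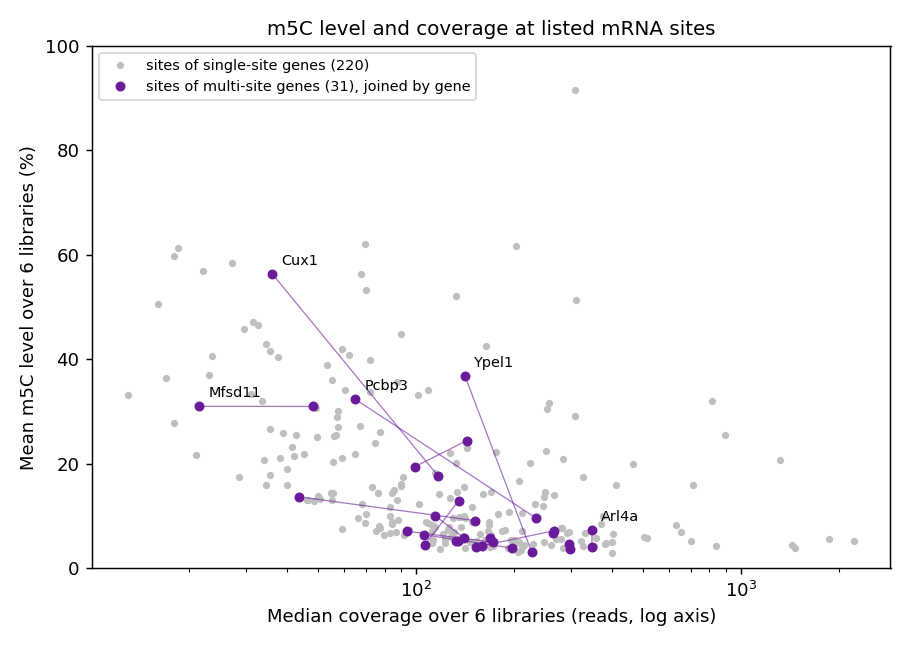
Mean m5C level over 6 libraries (vertical axis, %) against median coverage (horizontal axis, reads, log scale) for 31 sites of multi-site genes (purple, joined within a gene) and 220 sites of single-site genes (grey). The sites of Cux1, Pcbp3 and Ypel1 lie far apart in level, and in each of these genes the site with the higher level has the lower coverage.

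The largest gaps between sites of 1 gene were in Cux1, Ypel1 and Pcbp3. Cux1 encodes a homeodomain transcription factor, and its locus also encodes the Golgi protein CASP. Its sites (ENSMUSG00000029705; chromosome 5, minus strand, positions 136355696 and 136279444) are 76252 nucleotides apart. The upstream site stood at 20.4%, 16.7% and 20.4% in the WT libraries against 12.8%, 12.4% and 23% in the knockout libraries. The downstream site, the highest WT level among the 31, stood at 55.3%, 57.6% and 54.8% in WT against 53.7%, 51.4% and 65.7% in the knockout. Every downstream value thus exceeded every upstream value. Within the same library the downstream site was higher by 38.8 ± 3.41 percentage points (SD over 6 libraries of both genotypes), or 3.20 times, in 6 of 6 libraries. Coverage was 98 to 138 reads upstream and 31 to 41 downstream, and the exact 95% binomial interval of the shallowest downstream value, 54.8% in WT replicate 3, was 36.0% to 72.7%.

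Ypel1 showed the largest contrast over a short distance. Its sites (ENSMUSG00000022773; chromosome 16, plus strand, positions 16895687 and 16895912) are 225 nucleotides apart, and the order of levels was the reverse of that in Cux1. The upstream site stood at 39.5%, 32.8% and 39.9% in WT against 33.9%, 37.2% and 37.0% in the knockout. The downstream site stood at 5.91%, 2.31% and 2.15% in WT against 2.76%, 3.32% and 2.58% in the knockout. The values of the sites did not overlap in any library. The downstream site was lower by 33.5 ± 2.57 points (SD over 6 libraries), an 11.6-fold difference. It was also the deeper one, with 155 to 301 reads against 100 to 171. Its unconverted reads numbered 14, 5 and 4 in the WT libraries, which reaches the lowest WT count of any listed site.

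Pcbp3, which encodes a poly(rC)-binding protein with KH domains, held the most distant pair (ENSMUSG00000001120; chromosome 10, minus strand, positions 76797609 and 76624283; 173326 nucleotides). Its upstream site stood at 27.1%, 30.9% and 25.5% in WT against 47.9%, 27.2% and 35.5% in the knockout. Its downstream site stood at 12.8%, 10.2% and 5.46% in WT against 10.5%, 10.2% and 8.54% in the knockout. The upstream site was the higher one in 6 of 6 libraries, by 22.7 points on average with an SD of 8.34. Upstream coverage was 47 to 81 reads and downstream coverage 183 to 276.

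The transcriptional regulators Zfp541 and Atoh8 had smaller gaps. Zfp541, a zinc finger gene needed in male meiosis (ENSMUSG00000078796; chromosome 7, plus strand, positions 15812466 and 15829475), stood at 17.8% ± 2.10 in WT against 21.1% ± 3.75 in the knockout at the upstream site (SD, n = 3). Its downstream site stood at 23.9% ± 5.54 and 24.9% ± 0.650 (SD, n = 3) and was higher in 5 of 6 libraries. Atoh8, a basic helix-loop-helix gene (ENSMUSG00000037621; chromosome 6, minus strand), had the lowest WT level of the 31 at its upstream site at 72200888, with 2.93%, 2.65% and 3.70%. The downstream site at 72183717 averaged 6.30% in WT against 6.50% in the knockout and was higher in 5 of 6 libraries.

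Among genes of membrane traffic and autophagy, sites of 1 gene were mostly within a few points of each other. Mean gaps under 5 points also occurred outside this group, and 11 of all 16 pairs had one. Arl4a encodes a small GTPase of the ARF-like family that is abundant in male germ cells. Its adjacent sites (ENSMUSG00000047446; chromosome 12, minus strand, positions 40087900 and 40087899) were the deepest of the 31, with 212 to 419 reads. The upstream base stood at 6.86%, 9.15% and 6.10% in WT against 8.09%, 4.77% and 8.88% in the knockout. The next base stood at 3.97%, 5.36% and 3.77% in WT against 3.94%, 3.36% and 3.70% in the knockout. The coverage of the downstream base was 0.995 to 1.01 times that of the upstream base within each library. The downstream base was lower in 6 of 6 libraries, by 3.29 ± 1.35 points (SD over 6 libraries), or 1.82 times. The table does not tell how many reads kept C at both bases.

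Use1 encodes a SNARE protein of traffic from the Golgi to the endoplasmic reticulum (ENSMUSG00000002395; chromosome 8, plus strand). Site 1, at 71820483, stood at 4.73%, 3.65% and 3.16% in WT against 4.57%, 5.18% and 3.17% in the knockout. Site 2, 1334 nucleotides on at 71821817, stood at 4.47%, 8.80% and 8.74% in WT against 8.63%, 7.19% and 5.11% in the knockout. Site 3, another 17 nucleotides on at 71821834, stood at 7.85%, 5.59% and 7.39% in WT against 7.33%, 6.63% and 5.70% in the knockout. Site 2 was above site 1 in 5 of 6 libraries, by 3.08 ± 2.24 points. Sites 2 and 3 changed order between libraries, with a mean gap of -0.41 ± 2.23 points (SD over 6 libraries).

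Golga3, a golgin gene needed for sperm formation (ENSMUSG00000029502; chromosome 5, plus strand, positions 110355580 and 110355603), was lower at the downstream site in 5 of 6 libraries, by 4.20 ± 4.15 points (SD over 6 libraries). Atg9a encodes the lipid scramblase of autophagosome formation (ENSMUSG00000033124; chromosome 1, minus strand, positions 75163171 and 75158108). Its downstream site was higher in 6 of 6 libraries, by 4.57 ± 6.84 points (SD over 6 libraries). In WT replicate 2 the excess was 0.0198 points, and in WT replicate 3 it was 18.1. Without WT replicate 3 the mean gap of Atg9a was 1.85 points, and coverage of its downstream site was only 31 to 52 reads. Git1, a GTPase-activating scaffold for ARF proteins (ENSMUSG00000011877; chromosome 11, plus strand, positions 77389873 and 77397243), stood at 4.58% ± 0.582 and 3.35% ± 1.99 at its upstream and downstream sites in WT, against 4.64% ± 1.60 and 4.14% ± 1.16 in the knockout (SD, n = 3).

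The gene Mfsd11 (ENSMUSG00000020818; chromosome 11, plus strand, positions 116764652 and 116765014) shows how little a shallow site can resolve. Its upstream site, the shallowest of the 31 with 19 to 30 reads, stood at 26.3%, 45.0% and 34.6% in WT against 23.3%, 35.0% and 21.7% in the knockout. Its downstream site, with 30 to 54 reads, stood at 38.9%, 26.7% and 25.6% in WT against 26.4%, 31.5% and 36.8% in the knockout. The mean levels were alike, with a gap of -0.02 points, but single libraries differed by -18.3 to 15.1 points, and the SD was 12.9. The exact 95% binomial interval of the upstream site in WT replicate 1 ran from 9.15% to 51.2%.

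The sites of B9d1 differed in 1 direction in all 6 libraries. B9d1 encodes a protein of the ciliary transition zone (ENSMUSG00000001039; chromosome 11, plus strand, positions 61399985 and 61403495; 3510 nucleotides). Its upstream site stood at 4.97% ± 0.709 in WT against 4.10% ± 1.24 in the knockout, and its downstream site at 14.1% ± 4.98 and 11.7% ± 6.28 (SD, n = 3). The downstream site was higher in 6 of 6 libraries, by 8.38 ± 4.98 points (SD over 6 libraries), at coverage of 90 to 175 reads.

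Cox7c encodes a subunit of cytochrome c oxidase, and its sites, like those of Arl4a, are adjacent bases (ENSMUSG00000017778; chromosome 13, minus strand, positions 86194777 and 86194776). The upstream base stood at 5.22%, 4.55% and 5.97% in WT against 7.65%, 4.29% and 4.00% in the knockout. The next base stood at 3.65%, 6.06% and 7.58% in WT against 5.26%, 4.97% and 4.08% in the knockout. Here the order changed between libraries, and the mean gap was -0.01 ± 1.64 points (SD over 6 libraries). Vwa3b (ENSMUSG00000050122; chromosome 1, plus strand, positions 37225737 and 37226116) stood at 3.94% and 6.91% at its upstream and downstream sites in WT against 6.05% and 7.29% in the knockout, again with both orders present.

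**Figure D2:**
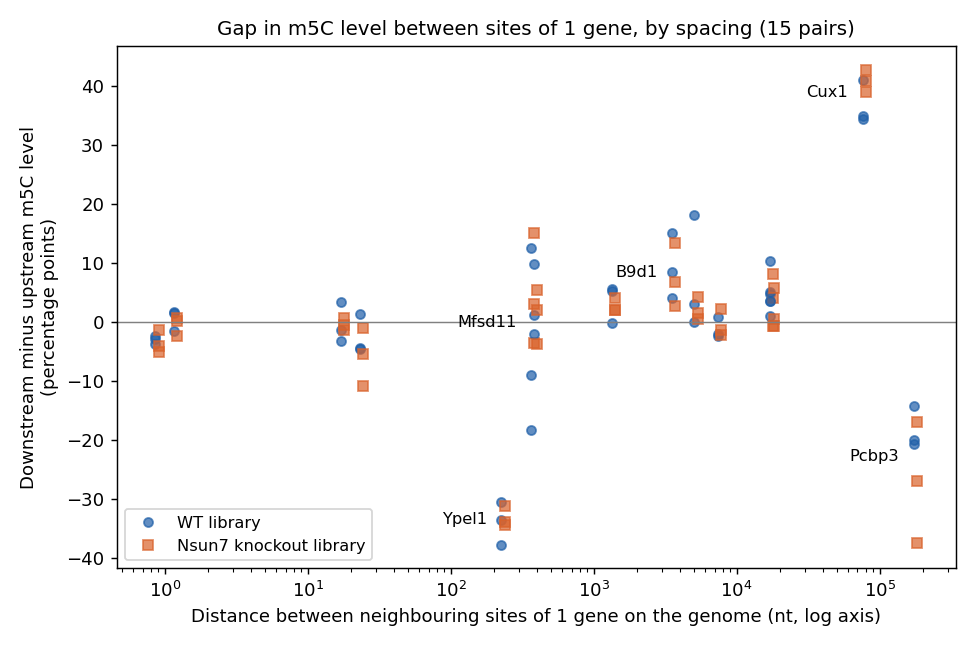
Downstream minus upstream m5C level within 1 library (vertical axis, percentage points) against the distance between neighbouring sites of 1 gene (horizontal axis, nucleotides, log scale), with 3 WT libraries (blue circles) and 3 knockout libraries (orange squares) for each of 15 pairs. The 2 pairs at 1 nucleotide and the genotypes are drawn slightly side by side. Cux1 lies near 39 points, Ypel1 near -34 and Pcbp3 near -23. The means of the other pairs lie between -4.20 and 8.38 points, and B9d1 and Atg9a lie above 0 in 6 of 6 libraries and Arl4a below 0 in 6 of 6.

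Over the 16 neighbouring pairs, the mean gap was under 5 points in 11, and the median absolute gap was 3.19 points. Over all 30859 pairs of sites from different genes it was 10.1 points. In 6 of 16 pairs the same site was the higher one in all 6 libraries, which is 37.5%, while 66.1% of pairs from different genes kept 1 order. These figures describe the list, which holds more low sites than the table as a whole, and no test compares them. The upstream site was the higher one in 3 of the 6 (Arl4a, Ypel1 and Pcbp3) and the downstream site in the other 3 (B9d1, Atg9a and Cux1). Each of the 6 had p = 0.03125 in the two-sided exact sign-flip test, the smallest that 6 libraries allow. After Benjamini-Hochberg adjustment over the 16 pairs it was 0.0833, so none passed the threshold of 0.05. A pair at the smallest p could pass only if most of the 16 pairs stood there too. The adjusted test therefore could not call a single gap, whatever its size. A quasi-binomial model with library as a block, tried as an alternative, called 6 pairs at adjusted p of 3.67e-05 to 0.0357, of which 5 are among the 6 above. It included sites 1 and 2 of Use1 and left out Atg9a (adjusted p = 0.191).

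The gap grew with spacing only loosely, with a Spearman correlation of 0.51 across the 16 pairs as a description. The median absolute gap was 1.65 points for the 2 adjacent pairs, 2.10 for the 3 pairs 225 to 379 apart and 4.78 for the 8 pairs over 1000. No median is given for the pairs 11 to 100 nucleotides apart, so these medians do not show a steady rise. The 17-nucleotide pair of Use1 and the 23-nucleotide pair of Golga3 had absolute gaps of 0.410 and 4.20 points. Ypel1 had the widest gap of the pairs under 1000 nucleotides. Levels of the upstream and downstream site correlated at Pearson's r of 0.32 and Spearman's rho of 0.21 across the 16 pairs. Without Cux1 and Ypel1, the pairs with the largest gaps, these were 0.69 and 0.38. Leaving out the pairs that agree least tends to raise such a correlation by itself, so the latter values do not measure agreement. The points share libraries, and the 2 pairs of Use1 share a site.

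Between genotypes, the levels of most of these sites differed by less than 3 points. The mean over the 31 sites was 12.4%, 13.7% and 12.5% in the WT libraries and 12.9%, 12.7% and 12.9% in the knockout libraries. The group means were 12.9% ± 0.707 (WT) and 12.8% ± 0.152 (knockout; SD, n = 3), so the knockout differed by -0.01 points. The knockout mean was higher at 16 sites and lower at 15, where 40.2% of all 251 sites were higher. The median difference was 0.06 points, beside -0.39 over all sites, and 26 of the 31 sites differed by less than 3 points. That count was not taken over all sites. The median absolute difference was 0.792 points over the 31 sites and 1.59 over all sites. The 31 sites also had lower levels, with a median WT level of 6.94% beside 10.1%. Across sites, WT and knockout levels correlated at Pearson's r of 0.98, as a description.

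**Figure D3:**
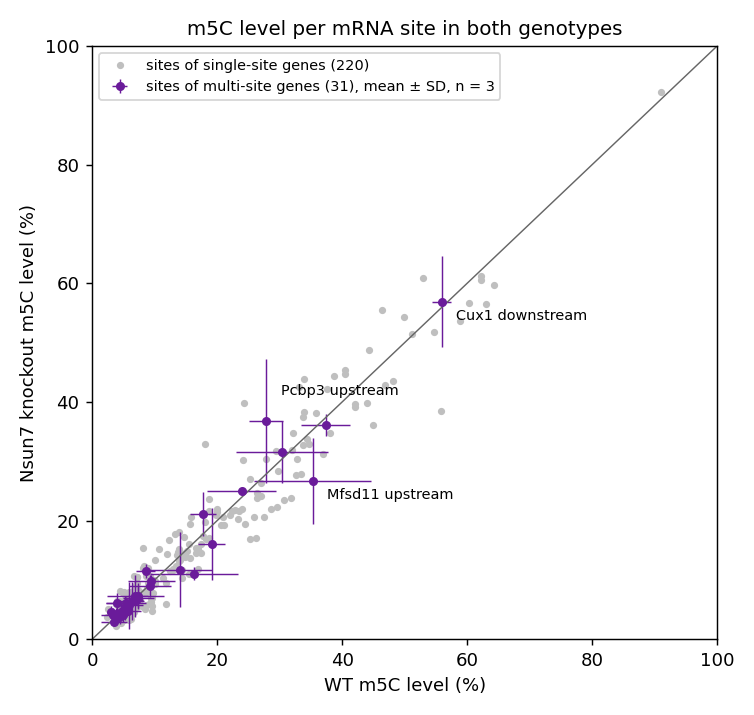
m5C level in the knockout (vertical axis, %) against WT (horizontal axis, %) for 31 sites of multi-site genes (purple, mean ± SD of 3 libraries) and 220 sites of single-site genes (grey, means), with the line of equal levels. The purple points follow the line, and the upstream sites of Pcbp3 and Mfsd11 lie farthest from it, with wide error bars.

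The quasi-binomial model of C reads, adjusted over all 251 sites, called 0 of the 31 sites (0% of all sites were called). At an unadjusted p under 0.05 it had 2 of the 31, beside 7.97% of all sites. limma on the levels called 0 as well, with 0 of the 31 at an unadjusted p under 0.05. At 2 of the 31 sites every knockout library lay on 1 side of every WT library, beside 29 of all 251 (11.6%). The knockout was the higher genotype at both. Over all sites it was the higher one at 13 of the 29, which is 5.18% of the 251. Among the 31, the sites with libraries apart were the upstream sites of Golga3 and Atoh8, the same 2 sites. That of Golga3 stood at 8.70%, 7.02% and 9.89% in WT against 12.9%, 10.7% and 11.0% in the knockout, a difference of 2.99 points. The nearest libraries of the genotypes at that site were under 1 point apart. That of Atoh8 stood at 2.93%, 2.65% and 3.70% in WT against 4.10%, 5.69% and 4.17% in the knockout, a difference of 1.56 points. The quasi-binomial model gave each an adjusted p of 0.540. At the other site of each gene the libraries overlapped, with differences of -0.24 points (Golga3) and 0.21 points (Atoh8).

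The differences of largest size came from shallow sites with overlapping libraries. The upstream site of Pcbp3 was 9.01 points higher in the knockout (adjusted p = 0.896 in the quasi-binomial model), and 3.49 points higher without knockout replicate 1, which stood at 47.9%. Without knockout replicate 2 it was 13.9 points higher. The upstream site of Mfsd11 differed by -8.62 points (adjusted p = 0.896 in the quasi-binomial model), by -3.77 without WT replicate 2 and by -13.1 without WT replicate 1. The downstream site of Atg9a differed by -5.23 points (adjusted p = 0.896 in the quasi-binomial model), and by -1.15 without WT replicate 3. At the highly methylated sites of Cux1 and Ypel1 the differences were 1.02 and -1.33 points. With 1 library left out they ran from -3.39 (without knockout replicate 3) to 3.79 (without knockout replicate 2) at Cux1. At Ypel1 the difference was -3.60 when WT replicate 2 was left out, -0.0926 for WT replicate 3, -0.292 for WT replicate 1 and -0.262 for knockout replicate 1. The 95% limma intervals there ran from -8.61 to 10.6 points at Cux1 and from -7.03 to 4.37 points at Ypel1.

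How much loss could go unseen depends on the level and depth of a site. The 95% limma interval left out a complete loss of the WT level at 28 of the 31 sites (95.6% of all sites) and a loss of 50% of it at 10 of the 31 (46.6% of all sites). The 3 sites whose interval included a complete loss were the downstream sites of Ypel1, Golga3 and Vwa3b, with WT levels of 3.46%, 5.95% and 6.91%. Every knockout library still had unconverted reads at these sites. They numbered 8, 10 and 4 at Ypel1, 3, 8 and 11 at Golga3, and 10, 8 and 2 at Vwa3b. At the median site, spread between libraries was close to that of counting reads. The dispersion in the quasi-binomial model averages about 1 when counting error alone acts, and its median is then somewhat lower. The median was 0.880 over the 31 sites and 0.891 over all sites. Single sites varied, with 16 of the 31 under 1 and a highest value of 3.72.

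**Figure D4:**
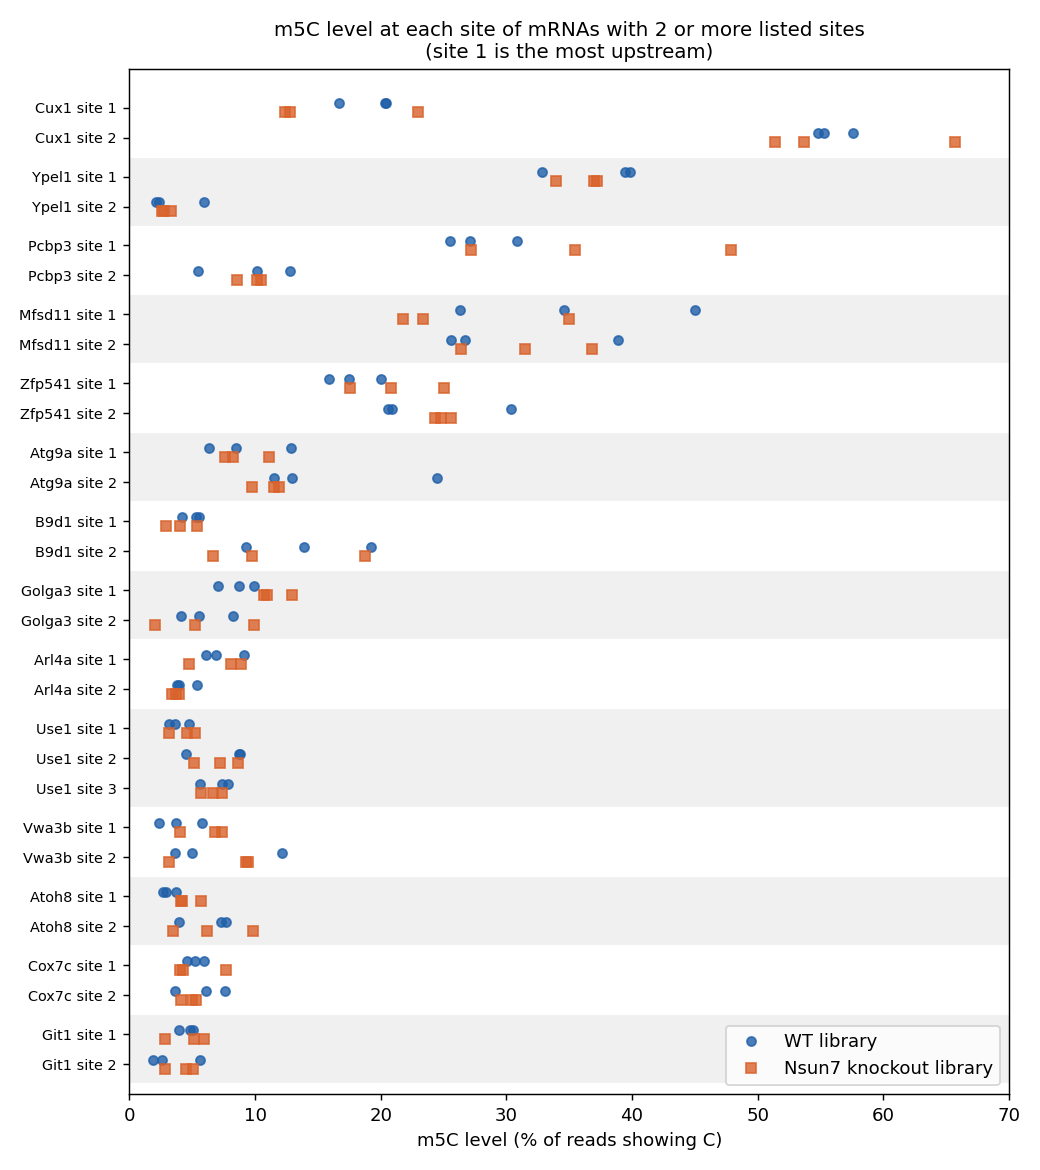
m5C level (horizontal axis, % of reads showing C) at 29 of the 31 sites, grouped by gene (14 genes), in 3 WT libraries (blue circles) and 3 knockout libraries (orange squares). The genotypes overlap at 27 of these sites, and the sites within Cux1, Ypel1 and Pcbp3 are separated in both genotypes.

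The gap between sites of 1 gene was also compared between genotypes. For Cux1 the WT gap was 36.7 ± 3.61 points and the knockout gap 40.8 ± 1.88, and for Ypel1 -33.9 ± 3.61 and -33.2 ± 1.76 (SD, n = 3). For Pcbp3 it was -18.3 ± 3.54 and -27.1 ± 10.2 (SD, n = 3). The largest difference was at Mfsd11, with a WT gap of -4.93 ± 15.9 points and a knockout gap of 4.89 ± 9.44 (SD, n = 3). Its libraries overlapped widely. In 0 of 16 pairs did the gaps of the genotypes lie apart, where this happened in 10.3% of pairs from different genes. The exact permutation test gave p of 0.3 or more for each pair, where 3 against 3 libraries cannot go below 0.1, and its Benjamini-Hochberg adjusted p over the 16 pairs was at least 0.862. The gaps lay apart in 5 pairs without WT replicate 1, in 1 without WT replicate 2, and in 2 without knockout replicate 2 or replicate 3.

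Coverage of the sites was compared between genotypes as well. The log2 ratio of knockout to WT coverage in edgeR ran from -0.37 at the downstream site of Vwa3b to 0.27 at the upstream site of Pcbp3, with a median of 0.03 (0.00 over all sites). edgeR's quasi-likelihood test called 0 of the 31 sites (0% of all), with 0 of the 31 at an unadjusted p under 0.05 beside 1.99% of all sites. With the replicate number as a block, edgeR called 0 sites as well, and 1 of the 31 and 28 of all 251 had an unadjusted p under 0.05. DESeq2 had 0 sites of the table at an unadjusted p under 0.05. Within a gene, the ratio of downstream to upstream coverage stayed within 0.980 to 1.02 in Cox7c, and ranged from 0.239 to 0.350 in Cux1, 1.35 to 2.08 in Ypel1 and 3.21 to 5.04 in Pcbp3. In bulk tissue, fewer cells of a type and less RNA per cell cannot be told apart in coverage.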

How the data were processed

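Coverage and the reads showing C were deposited by the authors as counts without normalization, per the file headers. The deposited m5C level is a fraction rounded by the authors to 2 decimals, per the file headers. Levels were recomputed from the counts as percentages. The submitters' processing notes name cutadapt, Trimmomatic, HISAT2, Bowtie2, SAMtools and the build GRCm39. The sources used here do not give the selection of sites or the role of each tool. Coordinates are those of the files. The column headed "light" was read as strand, and it matched the RefSeq (GRCm38.p6) strand for 13 of the 13 genes found there. Upstream and downstream follow it.

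The members and lists were chosen with earlier results of these data known. Tests used the 251 mRNA sites: a quasi-binomial logistic model (R 4.3.3, coverage of at least 10, Benjamini-Hochberg adjustment, threshold 0.05), limma 3.58.1 on levels, and for coverage edgeR 4.0.16 and DESeq2 1.42.0. The scripts were tested on simulated data. Intervals of single libraries are exact binomial (Clopper-Pearson, 95%) and cover counting error only. Nothing in the labels ties the libraries to separate animals, and p-values then reflect library-to-library spread that may be technical only. All 31 sites passed the coverage filter. Values in every library are given, by rule, for the closest and most distant pairs, genes with 3 sites, the 3 largest and 3 smallest gaps, the largest genotype difference of a gap, sites whose genotypes lie apart, and the highest, lowest, deepest and shallowest site. Coverage of same-numbered libraries correlated at 0.528, 0.698 and 0.812 after group means were removed, which meets the rule used for pairing, over 0.1 in every pair. Different-numbered libraries ranged from -0.754 to 0.510, so WT replicate 1 and knockout replicate 2, and WT replicate 2 and knockout replicate 1 (0.494 and 0.510), correlated almost as much as the first same-numbered pair. The labels do not state a pairing. Coverage is reported from the fit without the block, with the blocked counts beside it. The small RNA and rRNA tables were not used here. Sequences around the sites need a genome of GRCm39 and are not shown. Of the 15 genes, 1 is not reported here by name or value, and it stays in the counts, medians and tests over all sites.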

Additional observations from a re-analysis of the deposited data

How the results depend on the processing

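The depth of 19 to 419 reads per site and library limits how small a genotype difference could be detected. None of the 31 sites was called under any of the 12 alternatives for m5C or the 10 for coverage. Over all 251 sites, 1 was called without knockout replicate 3, a site outside these genes. The mean over the 31 sites differed by between -0.244 and 0.393 points with 1 library left out. The number of pairs with 1 order in every library was 6 to 8 with 1 library left out and 6 with a coverage minimum of 20 or 1 or on the log odds scale. The quasi-binomial model called 6 pairs by adjusted p, of which 5 are among those 6. Pairs whose genotypes lay apart numbered 0 to 5 with 1 library left out, 1 with a coverage minimum of 20 and 1 with the replicate block (1 direction in all 3 same-numbered pairs). Fewer libraries leave fewer values to overlap.

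Same-numbered libraries correlated in m5C residuals at 0.068, -0.035 and 0.155, so the numbers were not taken as pairs. With the replicate block 0 sites were called for m5C (22 of 251 at an unadjusted p under 0.05, against 20) and 0 for coverage (28 against 5). It changed no call of a site, but it did change the count of pairs whose genotypes lay apart, as given above.

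With each library left out, 14 of the 31 genotype differences and 13 of the 16 gaps kept their sign. Those that turned, in the genes named here, ranged, in points, from -0.937 to 1.12 (Arl4a upstream), -1.70 to 1.59 (Atg9a upstream), -1.47 to 1.73 (Atoh8 downstream), -5.94 to 0.137 (B9d1 downstream), -1.10 to 0.724 (Cox7c upstream), -3.39 to 3.79 (Cux1 downstream) and -0.600 to 0.948 (Git1 upstream). The others ran from -2.34 to 1.62 (Golga3 downstream), -1.43 to 5.46 (Mfsd11 downstream), -1.76 to 1.91 (Pcbp3 downstream), -1.80 to 0.569 (Use1 site 2), -1.07 to 0.0585 (Use1 site 3), -1.25 to 2.99 (Vwa3b downstream), -1.22 to 0.654 (Ypel1 downstream) and -0.715 to 4.17 (Zfp541 downstream). Pooled reads turned Atoh8 downstream to -0.207, Mfsd11 downstream to -0.462 and the Use1 site 2 to 0.00247. The gaps that turned ran from -0.337 to 0.461 (Cox7c), -3.05 to 3.64 (Mfsd11) and -1.17 to 0.149 (Use1 sites 2 and 3). In the quasi-binomial model the Mfsd11 gap was 0.0180 as a log odds. The cause was not tested.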

Other observations

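The choice by gene name leaves out sites of neighbouring genes. Of the 15 pairs of neighbouring listed sites within 20000 nucleotides of each other, 1 joined different genes, Egln2 and Rab4b on the minus strand of chromosome 7, 9240 nucleotides apart (positions 26864955 and 26874195). This pair was singled out after its values were seen. Egln2, an oxygen-sensing prolyl hydroxylase gene, stood at 19.6%, 24.4% and 31.6% in WT against 17.8%, 16.1% and 16.7% in the knockout. Rab4b, a gene of endosome recycling, stood at 9.09%, 14.6% and 22.7% in WT against 14.5%, 11.7% and 6.67% in the knockout. Coverage was 19 to 78 reads. Adjusted p-values of the quasi-binomial model were 0.575 (Egln2) and 0.972 (Rab4b).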
